A study of Mus musculus with 10 samples.

Results

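R-spondins, the Dickkopf family member Dkk3, and the receptors and ubiquitin ligase through which R-spondins and Wnt ligands act were followed in lumbar spinal motor neurons of HSA-NRTN mice and their wild-type littermates. The 10 genes, Rspo1, Rspo2, Rspo3, Dkk3, Lgr4, Lgr5, Lrp4, Lrp5, Lrp6 and Znrf3, were taken by symbol out of 51912 genes in the count files. The family was chosen from earlier results of these same libraries, in which Rspo2 and Dkk3 stood out in the genotype comparison. Genotype values of the members are therefore a description of these animals, and the p-values printed with them come from a fit over all genes and give no separate support. All 10 symbols were found, and 7 members passed the filter on low counts. Rspo1, Lrp4 and Lrp5 did not.

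The HSA-NRTN group comprised 5 transgenic mice, 3 females and 2 males, in which a human skeletal actin promoter drives neurturin in muscle fibres. The wild-type group comprised 5 littermates without the transgene, also 3 females and 2 males. From each mouse a single pool of about 50 lumbar motor neurons was cut out by laser, and its polyadenylated RNA was amplified and sequenced, so each library stands for 1 animal. Ages are not given in these sources. Cells with a visible nucleolus and an area above 200 µm2 were taken, so smaller motor neurons were not sampled. The transgene acts outside the captured cells, and its transcript there checks no label.

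Wnt ligands bind Frizzled receptors together with the co-receptors LRP5 and LRP6 and stabilise beta-catenin. The ubiquitin ligases ZNRF3 and RNF43 remove Frizzled from the cell surface, and R-spondins bind LGR4, LGR5 or LGR6 together with these ligases and take them off the membrane, which raises Wnt signalling. Classical Dickkopf proteins block LRP5 and LRP6, whereas DKK3 is a divergent, secreted member whose part in Wnt signalling is less clear. At the neuromuscular junction LRP4 is the muscle receptor of agrin, and R-spondin 2 from motor neurons has been described to promote clustering of acetylcholine receptors through LGR5.

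Gene counts ran from 1875971 to 6641695 per library, and 14090 to 19675 genes had a count. HSA-NRTN replicate 2 was the shallowest library, and it and wild-type replicate 1 had the largest mitochondrial shares, at 11.9% and 12.9% of gene counts. All 7 motor neuron markers checked (Chat, Slc5a7, Slc18a3, Isl1, Mnx1, Prph and Nefh) were present, with a summed level between 5519 and 8362 CPM (read counts scaled by effective library size) in HSA-NRTN libraries and between 6478 and 8345 CPM in wild-type libraries. Nefh was on average the largest part of that sum. By genotype, 5 of the 7 markers lay higher and 2 lower in HSA-NRTN, and none was called. Chat, the acetylcholine-synthesising enzyme, was the only marker higher in every HSA-NRTN library than in every wild-type library, as were 0.645% of all genes tested. It was at 117 ± 20.2 CPM in HSA-NRTN and 89.5 ± 10.95 CPM in wild-type pools, and did not pass the genotype test (adjusted p = 0.999). In pooled tissue, fewer cells of a type and less RNA per cell cannot be told apart.

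The secreted members Dkk3 and Rspo2 had the highest mean levels per length in both genotypes, with Rspo2 close to the receptor Lgr5 in HSA-NRTN pools. Divided by exon length, Dkk3 lay highest, at 77.1 ± 18.2 CPM per kb in HSA-NRTN pools and 188 ± 32.3 CPM per kb in wild-type pools (± SD, n = 5 per genotype). Rspo2 followed, at 18.4 ± 6.76 CPM per kb in HSA-NRTN pools and 61.3 ± 19.0 CPM per kb in wild-type pools. The receptor Lgr5 came next, at 12.4 ± 2.52 and 11.9 ± 3.48 CPM per kb in HSA-NRTN and wild-type pools. In wild-type pools these 3 genes were separate, with 147 to 227 CPM per kb for Dkk3, 35.8 to 80.3 for Rspo2 and 7.23 to 16.9 for Lgr5. In HSA-NRTN pools the ranges of Rspo2 (11.1 to 27.1 CPM per kb) and Lgr5 (10.4 to 16.4) overlapped.

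Lower in the order, neighbours overlapped. Wild-type means were 6.98 CPM per kb for Lgr4, 1.19 for Rspo3 and for Lrp6, 0.426 for Znrf3, 0.122 for Lrp4 and 0.0713 for Lrp5, and Lgr4 spread over 0.429 to 11.8 CPM per kb, into the range of Lgr5. Rspo1 had 0 counts in all 10 libraries, which allows up to 0.138 CPM over the HSA-NRTN and 0.130 CPM over the wild-type libraries. Of the 3 R-spondins followed, motor neurons thus carried mainly Rspo2, and of the co-receptors mainly Lrp6.

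**Figure D1:**
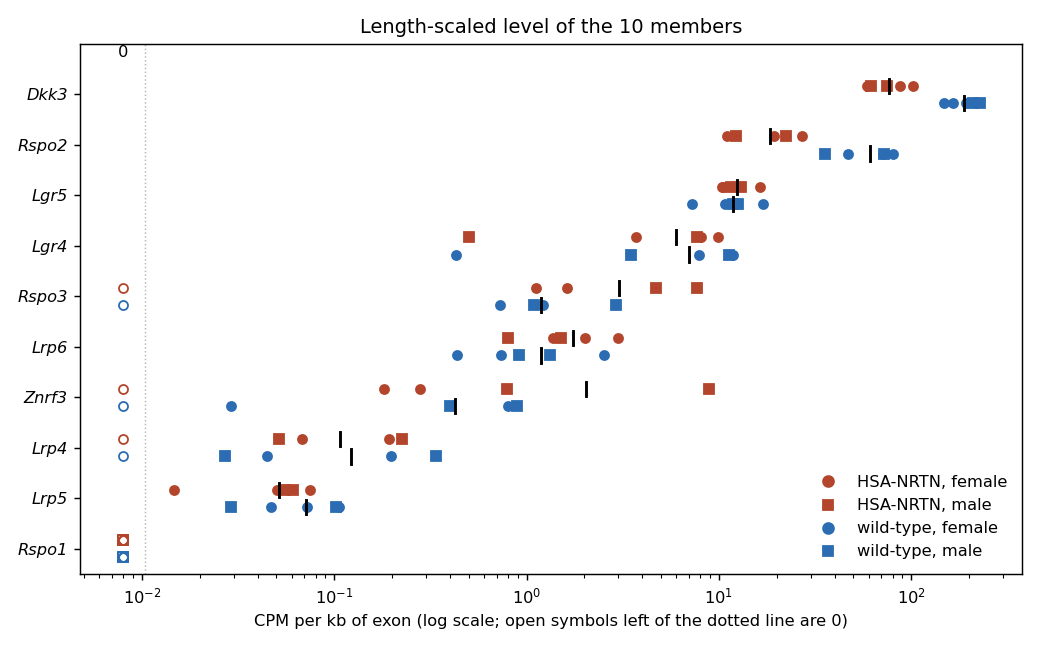
Length-scaled level of each member (x axis, CPM per kb of exon, log scale) in every library, genes ordered by their wild-type mean. HSA-NRTN libraries are drawn above wild-type libraries for each gene, vertical bars are group means and open symbols at the left edge are zeros. Dkk3 and Rspo2 lie highest, the Lgr5 points of both genotypes lie together, and Rspo1 is at 0 throughout.

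Rspo2 (ENSMUSG00000051920, chromosome 15, 43020794 to 43170826 on the minus strand of GRCm38) encodes R-spondin 2, a secreted ligand of LGR receptors. It had 62.9, 115, 138, 56.6 and 98.4 CPM in HSA-NRTN replicates 1 to 5, against 410, 371, 239, 364 and 183 CPM in wild-type replicates 1 to 5. The groups did not overlap: the highest HSA-NRTN library, replicate 3, lay below the lowest wild-type library, replicate 5. The mean was 94.1 ± 34.5 CPM in HSA-NRTN and 313 ± 97.3 CPM in wild-type pools (± SD, n = 5 per genotype), 3.33-fold lower in HSA-NRTN. The log2 fold change was -1.74 (SE 0.30, 95% interval -2.38 to -1.09), and the adjusted p of 0.0501 did not pass 0.05. Without any 1 library it lay between -1.92 and -1.60, and it passed only without HSA-NRTN replicate 3 (adjusted p = 0.0466), the HSA-NRTN library nearest to wild-type.

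Dkk3 (ENSMUSG00000030772, chromosome 7, 112116017 to 112159057, minus strand) had 208, 250, 295, 198 and 344 CPM in HSA-NRTN replicates 1 to 5, against 647, 762, 495, 552 and 701 CPM in wild-type replicates 1 to 5. Here too the groups were separate, the highest HSA-NRTN library (replicate 5) lying under the lowest of the wild-type ones (replicate 3). The mean was 258.985 ± 61.0 CPM in HSA-NRTN and 632 ± 109 CPM in wild-type pools (± SD, n = 5 per genotype), 2.44-fold lower in HSA-NRTN. The log2 fold change was -1.29 (SE 0.22, 95% interval -1.76 to -0.82), with an adjusted p of 0.0501, and it ran from -1.40 to -1.19 with 1 library left out, none of which passed (adjusted p 0.0780 to 0.230).

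By p, Dkk3 stood 5th and Rspo2 8th of 11630 genes tested. The single gene called over all of them, 0.0086%, was Ptpro, a receptor tyrosine phosphatase and no member, and 4.83% of genes had an unadjusted p under 0.05. Of the 7 members tested, 2 had every HSA-NRTN library below every wild-type library, as did 0.602% of all genes tested, and 0 had every one above, as did 0.645%. Since the family was put together with this contrast known, nothing is read from these shares. The summed levels of astrocyte and of oligodendrocyte lineage markers overlapped between the genotypes, at 46.4 to 748 and 246.75 to 1383 CPM in HSA-NRTN and 50.7 to 295 and 198 to 598 CPM in wild-type libraries, and once the pair of libraries with most mitochondrial counts was left out, the log2 fold changes were -1.68 for Rspo2 and -1.25 for Dkk3. Meningeal fibroblast markers summed to 0.986 to 57.0 CPM in HSA-NRTN and 11.017 to 352 CPM in wild-type libraries, highest in wild-type replicates 2 and 4. Of its 5 markers, Dcn was at 27.7 ± 23.9 CPM in HSA-NRTN and 137 ± 166 CPM in wild-type pools (log2 fold change -2.28, SE 1.10, adjusted p = 0.999), and Lum had 0 counts in HSA-NRTN libraries and 103 counts over 4 wild-type libraries. The mural marker Rgs5 was at 19.8 ± 29.2 CPM in HSA-NRTN and 3.42 ± 3.95 CPM in wild-type pools (log2 fold change 2.4996, SE 0.97, adjusted p = 0.921). Its HSA-NRTN mean was raised by replicate 2, at 71.9 CPM. Of the other endothelial and mural markers, all too low to be tested, Flt1 and Pecam1 had higher means in HSA-NRTN. Pdgfrb (3 counts in HSA-NRTN, 7 in wild-type libraries) and Cldn5 (0 and 1) had lower ones. The part of these cells in the Rspo2 and Dkk3 values was not tested.

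**Figure D2:**
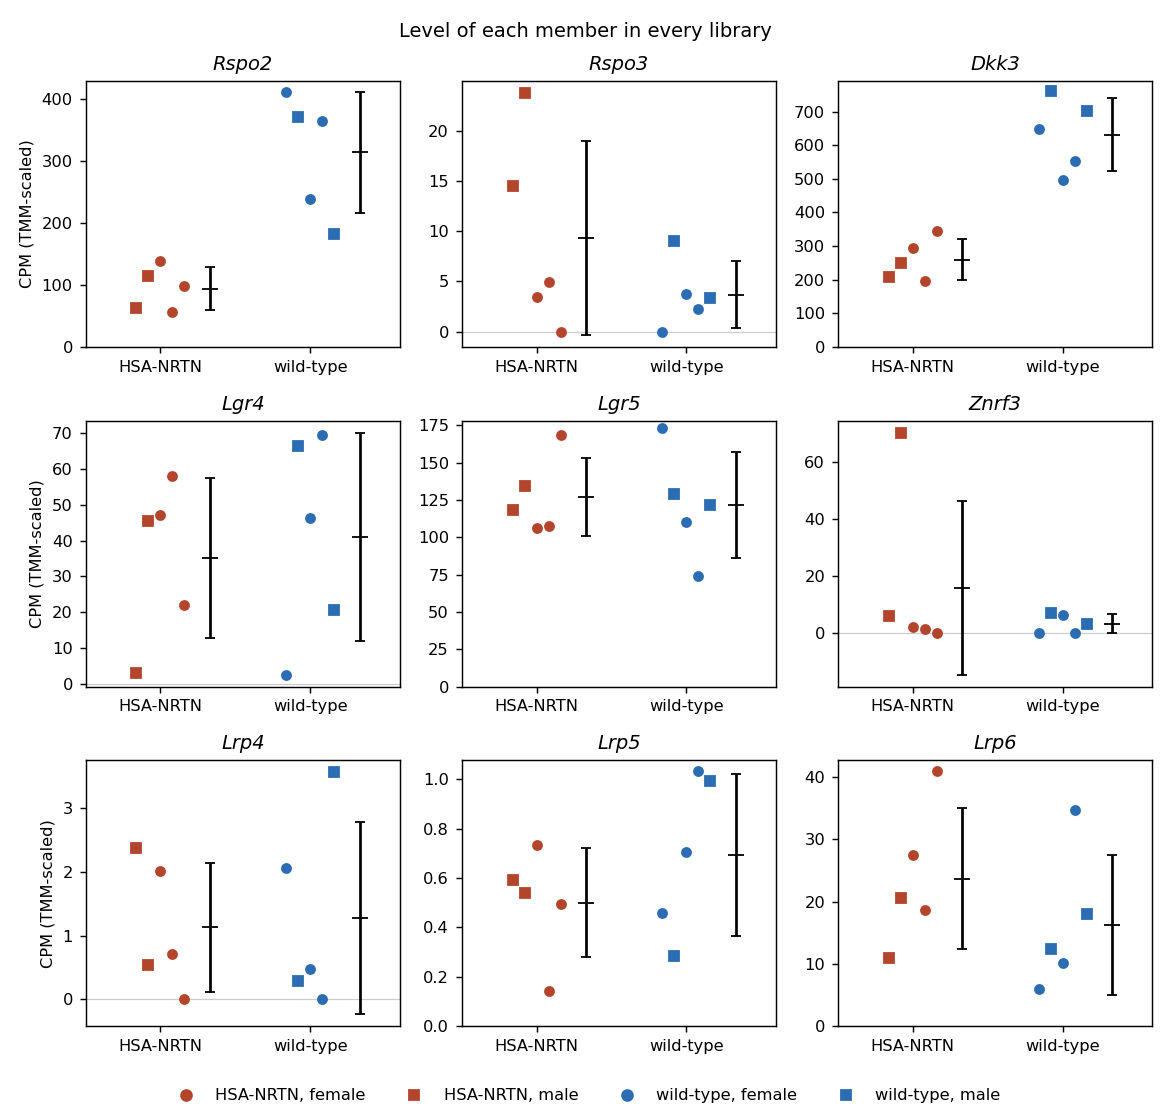
CPM (y axis, library sizes scaled by TMM, linear, separate scale per gene) of the 9 members with any count, HSA-NRTN left and wild-type right. Circles are females, squares males, and bars give the mean and SD of 5 libraries. The genotypes are separate for Rspo2 and Dkk3 and overlap for the other 7, and 1 HSA-NRTN library at 70.3 CPM sets the mean of Znrf3.

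Rspo3 (ENSMUSG00000019880, chromosome 10, 29452416 to 29535867, minus strand), another R-spondin, was low and uneven. It had 14.5, 23.8, 3.48, 4.99 and 0 CPM in HSA-NRTN replicates 1 to 5, against 0, 9.06, 3.75, 2.24 and 3.37 CPM in wild-type replicates 1 to 5. The groups overlapped, and the 2 male HSA-NRTN libraries, replicates 1 and 2, were the highest of all 10. Its log2 fold change, 1.33 (SE 1.11), had an adjusted p of 0.999, and its 95% interval, -1.04 to 3.69, allows a change in either direction. Without HSA-NRTN replicate 2 it was 0.64. A gene on the opposite strand, Gm48159, shares 404 bases with its exons, and the library kit does not mark strand, so reads there cannot be assigned to a strand.

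Neither R-spondin receptor passed the genotype test. Lgr5 (ENSMUSG00000020140, chromosome 10, 115450311 to 115587780, minus strand), also a Wnt target gene in other tissues, had 118, 135, 107, 107 and 169 CPM in HSA-NRTN replicates 1 to 5, against 173, 129, 110, 74.2 and 122 CPM in wild-type replicates 1 to 5. The HSA-NRTN libraries lay inside the wider wild-type range, and the lowest and the highest library were both wild-type. With a mean of 127 ± 25.8 CPM in HSA-NRTN and 122 ± 35.7 CPM in wild-type pools (± SD, n = 5 per genotype), the log2 fold change was 0.06 (SE 0.26), with a 95% interval of -0.48 to 0.61. That interval lies above the estimates of Rspo2 and of Dkk3 and spans 0.716-fold to 1.52-fold.

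Lgr4 (ENSMUSG00000050199, chromosome 2, 109917647 to 110014257, plus strand), a broadly expressed relative of Lgr5, varied more between libraries of a genotype than between genotypes. It had 2.97, 45.4, 47.3, 58.1 and 21.9 CPM in HSA-NRTN replicates 1 to 5, against 2.52, 66.5, 46.2, 69.5 and 20.6 CPM in wild-type replicates 1 to 5. Each genotype held 1 library under 3 CPM beside others up to 58.1 and 69.5 CPM. The coefficient of variation was 63.5% in HSA-NRTN and 70.8% in wild-type pools, against 20.3% and 29.4% for Lgr5. The log2 fold change was -0.22 (SE 0.71, 95% interval -1.73 to 1.28), and it turned to 0.08 without HSA-NRTN replicate 1.

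Znrf3 (ENSMUSG00000041961, chromosome 11, 5276324 to 5444847, minus strand), the ligase that clears Frizzled, had 6.23, 70.3, 2.20, 1.43 and 0 CPM in HSA-NRTN replicates 1 to 5, against 0.230, 7.08, 6.33, 0 and 3.17 CPM in wild-type replicates 1 to 5. Apart from HSA-NRTN replicate 2, which held 130 of the 173 HSA-NRTN counts, all libraries of both genotypes lay at or under 7.08 CPM. The log2 fold change of 2.23 (SE 1.36, adjusted p = 0.999) turned to -0.45 without that library. The same library had the highest Rspo3, the highest sum of astrocyte markers (748 CPM, against 46.4 to 93.8 CPM in the other HSA-NRTN libraries) and the highest sum of oligodendrocyte lineage markers (1383 CPM, against 246.75 to 445 CPM), and the part of these cells in the Znrf3 level was not tested. All 6 markers of each list had counts. Of the astrocyte sum in HSA-NRTN replicate 2, Slc1a2 alone gave 665 CPM, so that sum mostly reflects that gene. No other astrocyte marker exceeded 32.4 CPM (Aqp4) in any HSA-NRTN library.

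Of the members Lrp4, Lrp5 and Lrp6, Lrp6 (ENSMUSG00000030201, chromosome 6, 134446476 to 134566965, minus strand), the Wnt co-receptor, was the only one with enough counts to be tested. It had 10.97, 20.5, 27.5, 18.7 and 40.9 CPM in HSA-NRTN replicates 1 to 5, against 5.97, 12.5, 10.1, 34.8 and 18.0 CPM in wild-type replicates 1 to 5. The ranges overlapped almost fully, with a log2 fold change of 0.54 (SE 0.51, 95% interval -0.54 to 1.62, adjusted p = 0.999). With 1 library left out it ran from 0.26 (HSA-NRTN replicate 5) to 1.03 (wild-type replicate 4), with 0.34 without wild-type replicate 1, and it was 0.037 in males alone. Lrp5, the second Wnt co-receptor (chromosome 19, 3584828 to 3686564, minus strand), had 10 counts over the HSA-NRTN and 17 over the wild-type libraries, at 0.500 ± 0.219 and 0.694 ± 0.327 CPM. Lrp4, the agrin receptor of muscle (chromosome 2, 91457511 to 91513779, plus strand), had 25 counts over the HSA-NRTN and 30 over the wild-type libraries, at 1.13 ± 1.02 and 1.28 ± 1.51 CPM, and was at 0 in 1 library of each genotype. Differences in Lrp4 and Lrp5 were not detectable at this depth.

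In the authors' deposited table, whose log2 fold changes are moderated, the adjusted p was 1.2e-05 for Dkk3 (log2 fold change -1.19) and 2.87e-05 for Rspo2 (-1.51). For Rspo3, Lgr4, Lgr5, Lrp4 and Lrp6 the same deposited table gave adjusted p between 0.942 and 0.995. It has no adjusted p for Lrp5 and neither p for Znrf3, and it does not list Rspo1.

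Sex was not used in choosing the family, so it offers a test independent of that choice. No member was called between females and males with genotype in the model, where 0.0086% of 11630 genes, the single gene Xist, were called by edgeR's quasi-likelihood test. Rspo2 was at 218 ± 145 CPM in females and 183 ± 135 CPM in males (SD, n = 6 and 4), a log2 difference, female over male, of 0.22 (SE 0.30, adjusted p = 0.825), and Dkk3 at 422 ± 171 CPM in females and 480 ± 292 CPM in males, one of -0.05 (SE 0.22, adjusted p = 0.954). Lgr5 differed by -0.03 (SE 0.26, adjusted p = 0.977). The difference was -2.20 for Rspo3 (SE 1.0003, adjusted p = 0.436) and -3.30 for Znrf3 (SE 1.33, adjusted p = 0.407), and neither passed. Without HSA-NRTN replicate 2, a male, they were -1.92 and -1.68.

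The lower level of Rspo2 and Dkk3 was present in both sexes. Rspo2 averaged 97.8 CPM in HSA-NRTN females and 338 CPM in wild-type females (n = 3 each), and 88.7 CPM in HSA-NRTN males and 277 CPM in wild-type males (n = 2 each). Dkk3 averaged 279 CPM in HSA-NRTN females and 565 CPM in wild-type females, and 229 CPM in HSA-NRTN males and 732 CPM in wild-type males. Because the genotypes were separate over all 10 libraries for both genes, they had to be separate within each sex, which adds no support. The genotype effect in males minus that in females was 0.14 (SE 0.62) on the log2 scale for Rspo2 and -0.66 (SE 0.42) for Dkk3, with adjusted p of 0.990 and 0.922. In the interaction test edgeR called 0% of 11630 genes and limma voom 0, DESeq2 called 8, and 598 genes had an unadjusted p under 0.05 in edgeR. The 95% interval for Dkk3 was -1.57 to 0.26.

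Dkk3 and Rspo2 were more alike over all libraries than within a genotype. Over all 10 libraries the Pearson correlation of log2(CPM + 1) was 0.904. After subtracting each genotype mean it was 0.495 (Spearman 0.418), or 0.627 without the 2 libraries farthest from the median of Rspo2, with 0.765 among the HSA-NRTN and 0.105 among the wild-type libraries. Of the 21 pairs of tested members, the closest within genotype was Rspo3 with Znrf3, at 0.852 (Spearman 0.927) and 0.857 without the 2 libraries farthest from the median of Rspo3. Sex was not subtracted, and Rspo3 and Znrf3 had the largest log2 sex differences of the tested members (-2.20 and -3.30), neither of which passed. Both genes were low, with 0 counts in HSA-NRTN replicate 5. These are descriptions over few libraries that share depth and cell content.

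**Figure D3:**
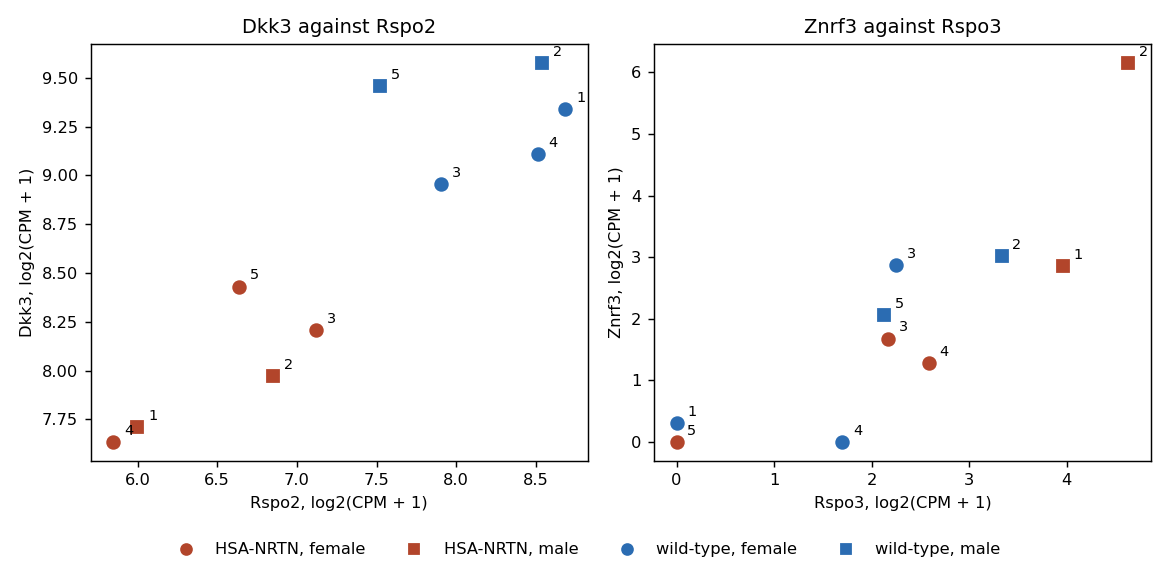
Left, Dkk3 against Rspo2, and right, Znrf3 against Rspo3, both axes in log2(CPM + 1), 1 point per library with its replicate number. On the left the 2 genotypes form separate clouds. On the right they mix along a common line, with HSA-NRTN replicate 2 at the top end.

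The genes whose pattern was most like Rspo2 over the 10 libraries were Maf, a transcription factor (Pearson r of 0.988), Diras2, a small GTPase (0.978), Itm2a, a membrane protein (0.929), Chodl, a marker of fast motor neurons (0.929), and Hpcal1, a calcium sensor (0.917). The most opposite were Zfp85 (-0.955), AA986860 (-0.937) and Ptpro (-0.921). Maf averaged 49.4 CPM in HSA-NRTN and 168 CPM in wild-type pools, and Diras2 36.5 CPM in HSA-NRTN and 79.5 CPM in wild-type pools. With genotype means subtracted, Maf (0.943) and Diras2 (0.933) stayed among the 5 nearest to Rspo2, joined by Palb2, Mtln and Trappc6b. Palb2 was low, at 2.40 CPM in HSA-NRTN and 2.29 CPM in wild-type pools. The most opposite were then Tmem163, Smim1 and Col4a1.

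For Dkk3 the nearest were Chodl (0.938), the ectonucleotidase Entpd3 (0.920), the prolyl hydroxylase Egln3 (0.907), the membrane protein Adam23 (0.907) and Rspo2 itself (0.904), and the most opposite the same 3 genes as for Rspo2. With genotype means subtracted none of these stayed among the nearest 5, which were Tacc2 (0.922), the fatty acid elongase Elovl4 (0.911), the growth factor Fgf9 (0.897), the transcription factor Nfia (0.895) and Tmem181b-ps (0.861). The most opposite were then Kif9, Ucn and Rbm5. All correlations are over 10 libraries and carry no test, and the genes named are the extremes among 11630 tested.

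The rest of the pathway was looked at through 96 further genes. Of these 85 had a count and 44 were tested, 20 above and 24 below 0 in log2 fold change. Their median was -0.03, beside -0.01 over all 11630 genes tested. None was called by genotype in edgeR, DESeq2 or limma voom, and 6 of 44 had an unadjusted p under 0.05 in edgeR, beside 4.83% of all genes tested. In none of the 44 were the genotypes separate, beside 0.602% of all genes lower and 0.645% higher in every HSA-NRTN library. The edgeR fit recovered only 4.5% of simulated 2-fold changes, so a gene that was not called is not shown to be unchanged.

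Few partners of the R-spondin and Dickkopf system were detected beyond the members. Rspo4, Dkk1, Dkk4 and Kremen2 had 0 counts in all libraries. Lgr6, the third R-spondin receptor, had 57 counts over 4 HSA-NRTN libraries and 15 over 2 wild-type libraries, and Rnf43, the second ligase, had 3 counts in each genotype. Dkk2 had 13 counts over 2 HSA-NRTN libraries, 12 of them in replicate 2, and 0 in wild-type libraries, and the Dickkopf receptor Kremen1 had 51 counts over the HSA-NRTN and 41 over the wild-type libraries. None of these passed the filter.

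Wnt ligands were sparse, with 14 of 19 detected and 3 tested. Wnt10a was at 5.53 ± 4.70 CPM in HSA-NRTN and 0.872 ± 1.49 CPM in wild-type pools (± SD of 5 libraries), with 0 in HSA-NRTN replicate 2 and in 3 wild-type libraries, a log2 fold change of 2.60 (SE 1.27). Wnt5a was at 10.7 ± 8.08 CPM in HSA-NRTN and 5.73 ± 5.16 CPM in wild-type pools, and Wnt9a, the highest per length in wild-type pools, at 0.874 CPM per kb there, had a log2 fold change of -0.15 (SE 0.95). Both genes of Wnt secretion were on the lower side: Porcn, the acyltransferase that lipid-modifies Wnts, at 56.7 ± 17.3 CPM in HSA-NRTN and 97.4 ± 29.8 CPM in wild-type pools (log2 fold change -0.77, SE 0.31, adjusted p = 0.937), and Wls, the Wnt carrier, at 16.7 ± 9.39 and 25.5 ± 10.2 CPM in HSA-NRTN and wild-type pools. Neither passed.

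Of 10 Frizzled receptors, all had a count and 5 were tested, 2 higher and 3 lower. Fzd9, the highest per length in wild-type pools (6.41 CPM per kb), was at 4.20 ± 2.48 CPM in HSA-NRTN and 14.7 ± 13.2 CPM in wild-type pools (log2 fold change -1.80, SE 0.74, adjusted p = 0.941). Wild-type replicate 1, at 35.6 CPM, carried much of that difference, the other 4 of that genotype having 2.07 to 19.0 CPM. Fzd3 was at 2.84 ± 2.23 CPM in HSA-NRTN and 9.60 ± 4.38 CPM in wild-type pools (log2 fold change -1.71, SE 0.79), Fzd8 had one of -0.77 (SE 0.66) and Fzd1 one of 0.90 (SE 0.86). The alternative Wnt receptor Ryk stood at a log2 fold change of 0.49 (SE 0.54) and Ror2 at -0.08 (SE 1.27). The secreted inhibitors Sfrp1 and Frzb had -0.96 (SE 0.67) and -0.52 (SE 0.80), and none of these genes passed.

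No intracellular component of the pathway passed the test. Of the 13 tested genes of the destruction complex and Dishevelled, 5 lay above and 8 below 0 on the log2 scale, and their median was -0.06. Gsk3b, the kinase that marks beta-catenin for destruction, was at 383 ± 82.0 CPM in HSA-NRTN and 394 ± 69.3 CPM in wild-type pools (± SD, n = 5 per genotype), and the kinase Csnk1a1 at 344 ± 45.5 CPM in HSA-NRTN and 430 ± 76.8 CPM in wild-type pools. Apc2, a neuronal relative of Apc, was at 38.0 ± 7.36 CPM in HSA-NRTN and 59.4 ± 14.6 CPM in wild-type pools (log2 fold change -0.64, SE 0.29, adjusted p = 0.996), and that of the kinase gene Csnk1e was 0.93 (SE 0.62). Of TCF and LEF factors and coactivators 4 of 8 were tested, with -0.84 (SE 0.87) for Bcl9l, 0.42 (SE 1.02) for Tcf7l2, 0.17 (SE 0.70) for Pygo1 and 0.04 (SE 0.42) for Pygo2.

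**Figure D4:**
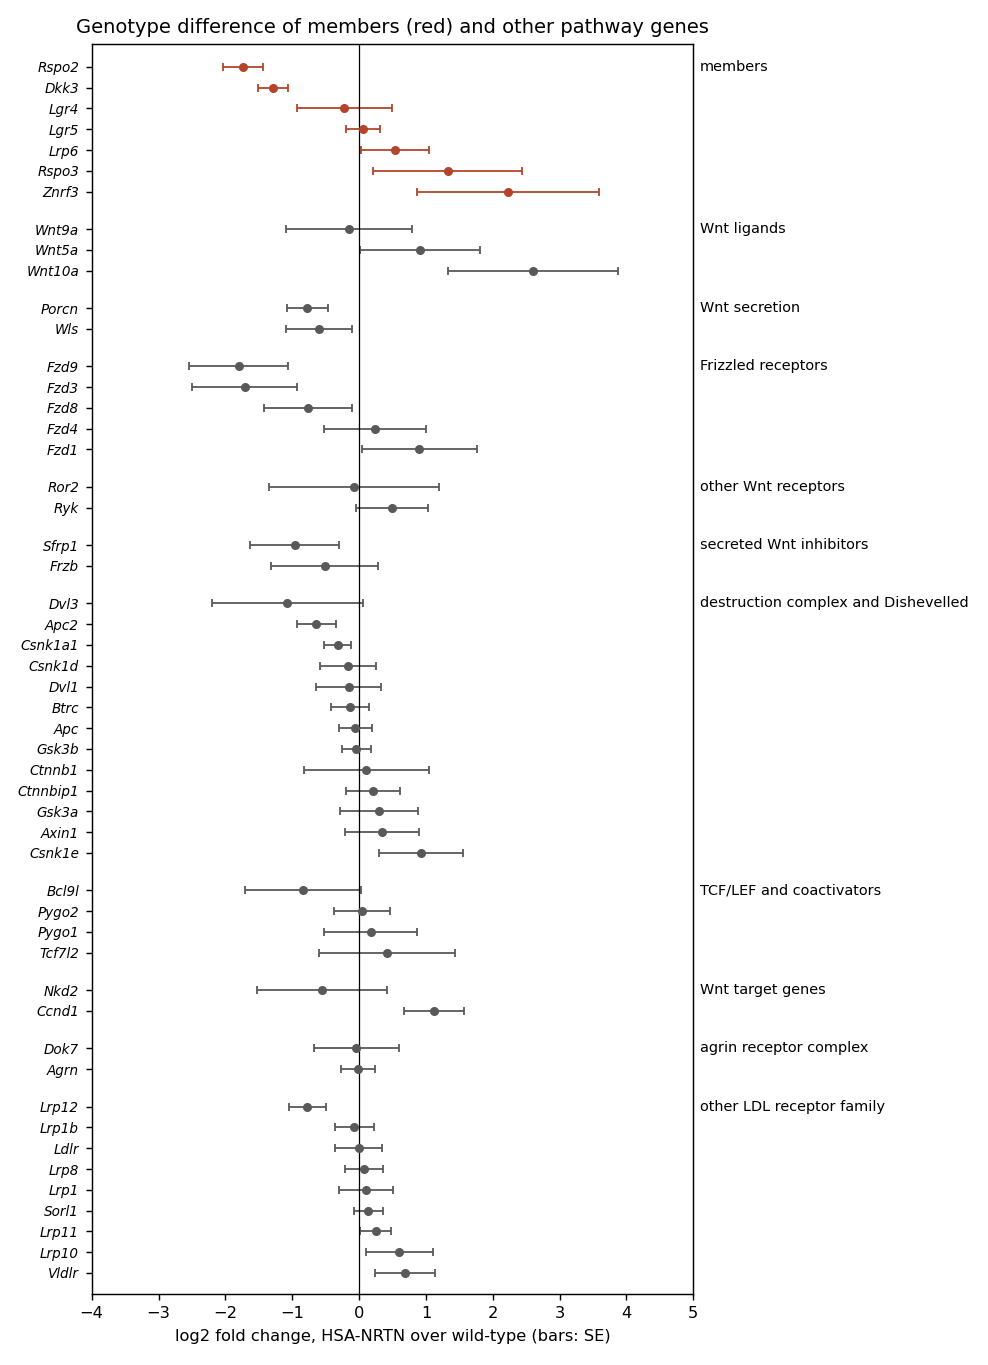
Log2 fold change, HSA-NRTN over wild-type (x axis, bars are the SE), of the 7 tested members in red and the 44 other tested pathway genes in grey, grouped by role. Rspo2 and Dkk3 have the most negative values relative to their SE, and both tested genes of Wnt secretion, of the secreted inhibitors and of the agrin receptor complex lie below 0, while each other group has genes on both sides.

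Of 15 Wnt target genes, 13 had a count and 4, including the members Lgr5 and Znrf3, were tested. The cyclin gene Ccnd1, which other pathways also induce, was at 30.2 ± 12.7 CPM in HSA-NRTN and 13.8 ± 6.48 CPM in wild-type pools (log2 fold change 1.12, SE 0.45, adjusted p = 0.921), and the feedback inhibitor Nkd2 had a log2 fold change of -0.56 (SE 0.97). Neither passed. Axin2, the feedback gene most used as a readout of beta-catenin signalling and named here after its values were seen, was too low for the fit, with 5, 0, 1, 3 and 2 counts in HSA-NRTN replicates 1 to 5, against 40, 12, 15, 0 and 0 counts in wild-type replicates 1 to 5. The groups overlapped, and 2 wild-type libraries had no Axin2 count.

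Partners of Lrp4 at the neuromuscular junction and other LDL receptor relatives were read last. Agrn, the agrin made by motor neurons, was at 112 ± 13.9 CPM in HSA-NRTN and 113 ± 33.5 CPM in wild-type pools (± SD, n = 5 per genotype), a log2 fold change of -0.01 (SE 0.25), and the adaptor Dok7 had one of -0.04 (SE 0.64). Musk had 0 counts. Among 9 tested relatives 6 were positive and 3 negative. Lrp11, the highest of them per length in wild-type pools, at 190.2 CPM per kb there, had a log2 fold change of 0.25 (SE 0.24). Lrp12 was at 139 ± 30.6 CPM in HSA-NRTN and 238 ± 94.1 CPM in wild-type pools (log2 fold change -0.78, SE 0.28, adjusted p = 0.852), Vldlr had 0.69 (SE 0.45) and Lrp10 0.60 (SE 0.50), and none passed.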

How the data were processed

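Each library is 1 pool of motor neurons from 1 mouse, made with Smart-seq2 and Tn5 per the labels' protocols. Molecules carry no identifiers, so floors cover counting error only. Per the submitters' processing notes, STAR 2.5.0a served for alignment to GRCm38.p6 and HTSeq for the raw counts per gene that the authors deposited. How HTSeq was set is not given in these sources. A deposited expression table holds a signal, the counts divided by 1 size factor per library (relative spread within a library up to 9.71e-15). The authors' deposited comparison table, from DESeq2 per the same notes, holds log2 fold changes, a Wald score and p-values, and is quoted by name only.

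Of 51912 genes, 11630 passed edgeR's filterByExpr. The 5 tally entries and 92 ERCC spike-ins were left out. Reads on no feature made up 5.69% to 12.1% of a library, ambiguous reads 0.737% to 2.12%, unaligned reads 16.3% to 58.6% and reads not uniquely aligned 15.3% to 32.5%. Libraries were scaled by TMM, and genotype, sex (with genotype) and their interaction were tested with edgeR 4.0.16 (quasi-likelihood F test) in R 4.3.3, with no other covariate for genotype. P-values are two-sided, adjusted by Benjamini-Hochberg over all genes tested and called under 0.05. DESeq2 1.42.0 and limma voom 3.58.1 were alternatives. CPM uses TMM-scaled library sizes, per kb of merged GENCODE M21 exons, and log2(CPM + 1) serves correlations. SE comes from the F statistic. A floor is 3 counts over a group. The fit was tested on simulated data.

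Members and lists were chosen with earlier results of these data known. Named were all members, from each other list up to 3 tested genes of smallest p and up to 2 of highest wild-type level per length, and the genes most like Rspo2 and Dkk3. Ptpro and Xist as the called genes, Axin2, and the genes given by counts alone were named after their values were seen. So were the cell type markers given singly. Replicate numbers only name libraries, in record order, and do not pair mice. Groups come from the genotype label.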

Additional observations from a re-analysis of the deposited data

Results flagged for a closer look

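Znrf3 stood at 70.3 CPM in HSA-NRTN replicate 2, far from the other HSA-NRTN libraries, the nearest of which had 6.23 CPM, so that the gap was 0.911 of the whole range of the group. It was the only such library among 18 groups of member values checked. A chance rate of about 1 in 20 groups would hold for normally distributed values, which low and skewed levels such as these need not follow. The same library had the highest endothelial and mural marker sum, 82.1 CPM against 6.27 to 12.3 CPM in the other HSA-NRTN libraries. Of that sum the mural marker Rgs5 alone gave 71.9 CPM and the endothelial marker Pecam1 6.49 CPM, while Cldn5 had 0 counts in HSA-NRTN libraries. The part of these cells in the Znrf3 level was not tested.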

How the results depend on the processing

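Rspo2 and Dkk3 lay lower in HSA-NRTN in all 21 alternatives each, at log2 fold changes of -1.92 to -1.60 and -1.68 to -0.998 (adjusted p 6.85e-05 to 0.790 and 6.44e-05 to 0.982), and each passed 0.05 in 4. For both these included DESeq2 (6.85e-05 and 6.44e-05), no filter (0.000525 and 0.00618) and robust shrinkage (0.0456 each). Rspo2 also passed without HSA-NRTN replicate 3 (0.0466), and Dkk3 with limma voom (0.0484). All alternatives reuse the libraries from which both genes were chosen, so their shared direction adds no support. The count of genes called by genotype, 1, became 81 with no filter, 59 with DESeq2, 3 with limma voom, 9 with robust shrinkage, 5 with sex as a covariate, 2 in males alone, and 0 in females alone, in the model with runs of animal numbers (the mouse numbers in the titles fall into 2 runs, the first with 3 HSA-NRTN and 1 wild-type mice, the second with 2 and 4, so run and genotype are partly confounded), and once both libraries with most mitochondrial counts (HSA-NRTN replicate 2, wild-type replicate 1) were dropped, a choice made after seeing the data. With 1 library left out it ran from 0 (wild-type replicate 2) to 7 (HSA-NRTN replicate 3), and was 2 without HSA-NRTN replicate 1 or wild-type replicate 3. The count by sex, 1, became 315 with no filter, 105 with DESeq2 and 0 with limma voom, and ran from 1 to 178 (without wild-type replicate 1). With no filter 1 other pathway gene was called by sex, and the median log2 fold change of all genes by genotype was 0.11, against -0.01. The interaction gave 8 calls in DESeq2 and 0 in edgeR.

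Directions that turned all belonged to differences that did not pass. The genotype value of Lgr4 was 0.035 with limma voom, 0.66 with runs of animal numbers and 0.12 in females, and -0.61 to 0.076 with 1 library or both of that pair left out. That of Znrf3 was -0.83 with runs of animal numbers, -0.79 in females, -0.75 without that pair, and -0.45 to 2.66 with 1 library left out. Leaving out 1 library gave -0.073 to 0.23 for Lgr5 by genotype and, by sex, -0.16 to 0.078 for Dkk3, -0.098 to 0.93 for Lgr4 and -0.17 to 0.087 for Lgr5. The sex difference of Znrf3 passed with no filter alone (adjusted p = 0.0267). The cause of these shifts was not tested. No paired analysis was possible because the labels carry no replicate numbers shared by the groups. Depth limits Rspo1, Lrp4 and Lrp5, which were not tested.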
